A study of Mus musculus with 13 samples.

Results

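Nucleic acid sensors of innate immunity were followed in preparations of mouse retinal cells enriched for retinal ganglion cells (RGCs), the neurons whose axons form the optic nerve. The set was a list of 10 genes found by symbol in a table of 52550 genes: the cytosolic RNA helicases Ddx58 (also called Rigi), Ifih1 and Dhx58, their adaptor Mavs, the Z-form nucleic acid sensor Zbp1, the Toll-like receptors Tlr3, Tlr7, Tlr8 and Tlr9, and the cytosolic DNA sensor Aim2. All 10 were present. The genes were matched by name alone, but the list was drawn up with earlier results of these data known. The 13 bulk RNA-seq libraries came from retinal cells sorted for surface Thy1.2 to enrich RGCs. In the adult dataset, P42 mice carried floxed alleles of Kdm6a (UTX, a histone H3K27 demethylase), received AAV2 in the eye and were examined 3 days after optic nerve crush. The AAV2-Cre group (2 libraries) had virus encoding Cre and is labelled as the knockout, and the AAV2-GFP group (3 libraries) had virus encoding GFP and served as the control. Cre removed exon 3 of Kdm6a only in cells that the virus entered, and the sort did not select for those cells. Injury, AAV2 injection and the floxed allele were thus shared by both adult groups. The cargo of the virus, Cre or GFP, differed together with the deletion, so their parts cannot be told apart. In the developmental dataset, uninjured wild type mice without virus were taken at P1 (3 libraries), P14 (3 libraries) and P21 (2 libraries). The libraries are called biological replicates, but how many animals entered each is not stated, so p-values measure the spread between these libraries.

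Innate sensors recognise nucleic acids that are foreign or out of place. The helicases encoded by Ddx58 (RIG-I) and Ifih1 (MDA5) bind viral-type RNA in the cytosol and signal through Mavs on mitochondria, while the Dhx58 product (LGP2) lacks the signalling domains and modulates the other helicases. Tlr3, Tlr7, Tlr8 and Tlr9 read RNA or DNA inside endosomes, Zbp1 couples nucleic acid sensing to necroptosis, Aim2 assembles an inflammasome on DNA, and many of these genes are themselves induced by interferon. In the central nervous system, Tlr7 and Tlr9 are best known from microglia and infiltrating immune cells.

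The helicases share the DECH box, part of the ATP-binding core that defines the family, and its codons are shown because these 3 genes together carry the largest share of the set's counts in the adult libraries. In the GRCm38 assembly, to which the reads were aligned, Ddx58 lies on the minus strand of chr4:40203773-40239828, Ifih1 on the minus strand of chr2:62595798-62646255 and Dhx58 on the minus strand of chr11:100694884-100704271. The lines below give 36 bases of coding sequence around the box, read from GENCODE M21 transcripts in the direction of the gene, with the 12 bases of the DECH codons in capitals. They lie in exon 8 of Ddx58 (chr4:40223873-40223908), exon 7 of Ifih1 (chr2:62610615-62610650) and exon 4 of Dhx58 (chr11:100703226-100703261).
Ddx58: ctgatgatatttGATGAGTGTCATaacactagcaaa
Ifih1: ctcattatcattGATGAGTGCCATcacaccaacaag
Dhx58: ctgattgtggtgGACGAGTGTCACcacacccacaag

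Promoter sequences from 250 bases before to 50 after a gene's start (RefSeq, GRCm38.p6) were found for 7 of the 10 genes, all but Dhx58, Zbp1 and Tlr7. They were searched on both strands for the core of the interferon-stimulated response element (ISRE), the letters GAAA, any 2 bases and GAAA again. The ISRE core was held by Ddx58 and Ifih1 among the 7 and by 3.44% of 32851 promoters in the table. The matches shown are all those of the ISRE core in the 7 promoters. Each line gives 30 bases on the strand of the gene with the match in capitals. They are the minus strand of chr4:40239804-40239833 for Ddx58 and of chr2:62646206-62646235 for Ifih1. The match began 2 bases after the start in Ddx58 and 32 bases after it in Ifih1. A match is a description of the letters only.
Ddx58, ISRE core on the opposite strand: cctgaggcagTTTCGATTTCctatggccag
Ifih1, ISRE core: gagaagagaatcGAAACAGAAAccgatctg

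Depth and cell markers set the frame for these genes. Total counts per library were 13637602 to 16070720 in the adult groups and 30357454 to 38812917 in development, so a gene with 0 counts could lie at up to 0.178 to 0.213 CPM (counts scaled to library size) in an adult library and 0.0774 to 0.0990 CPM in a developmental one (3 counts, counting error only). Kdm6a counts over the whole gene overlapped between the adult groups, at 109 ± 2.10 CPM (SD, n = 2) with AAV2-Cre and 108 ± 10.7 CPM (n = 3) with AAV2-GFP. Reads outside the floxed exon are still counted after deletion, so this value does not check the labels. RGC markers (16 genes) took 1.07% to 1.18% of counts at P1 but 0.0367% to 0.0457% in the adult libraries, where Pou4f2, a transcription factor of RGCs, had 0 counts with AAV2-Cre and 2 with AAV2-GFP. Rod photoreceptor markers (14 genes) took 0.0155% to 0.0161% of counts at P1 and 1.40% to 3.71% in the adult libraries. By these markers the libraries are mixtures of retinal cells, in which RGC markers had a smaller share than rod and than microglia and macrophage markers in every adult library. Markers of microglia and macrophages (20 genes) took 0.00345% to 0.00523% of counts at P1, 0.0411% to 0.0428% at P14, 0.0113% to 0.0128% at P21, 0.671% to 1.01% with AAV2-GFP and 0.927% to 1.09% with AAV2-Cre. In bulk libraries, fewer cells of a type and less RNA per cell cannot be told apart.

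Most of the sensors were far higher in the injured adult libraries than at any postnatal age, as the plot of CPM by library shows. For 7 of the 10 genes (Ddx58, Ifih1, Dhx58, Zbp1, Tlr7, Tlr8 and Aim2), all 5 adult libraries lay above all 8 developmental libraries, which was so for 22% of 23844 genes tested. Mavs, Tlr3 and Tlr9 overlapped between the datasets. Age, injury, virus, allele and dataset differ together between adult and developmental libraries and cannot be told apart. The summed level of the 10 genes was 16.6 to 26.4 CPM at P1, 104 to 113 CPM at P14, 103 to 111 CPM at P21, 257 to 389 CPM with AAV2-GFP and 670 and 674 CPM with AAV2-Cre. The P14 and P21 ranges overlapped, and those of the other groups did not.

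**Figure D1:**
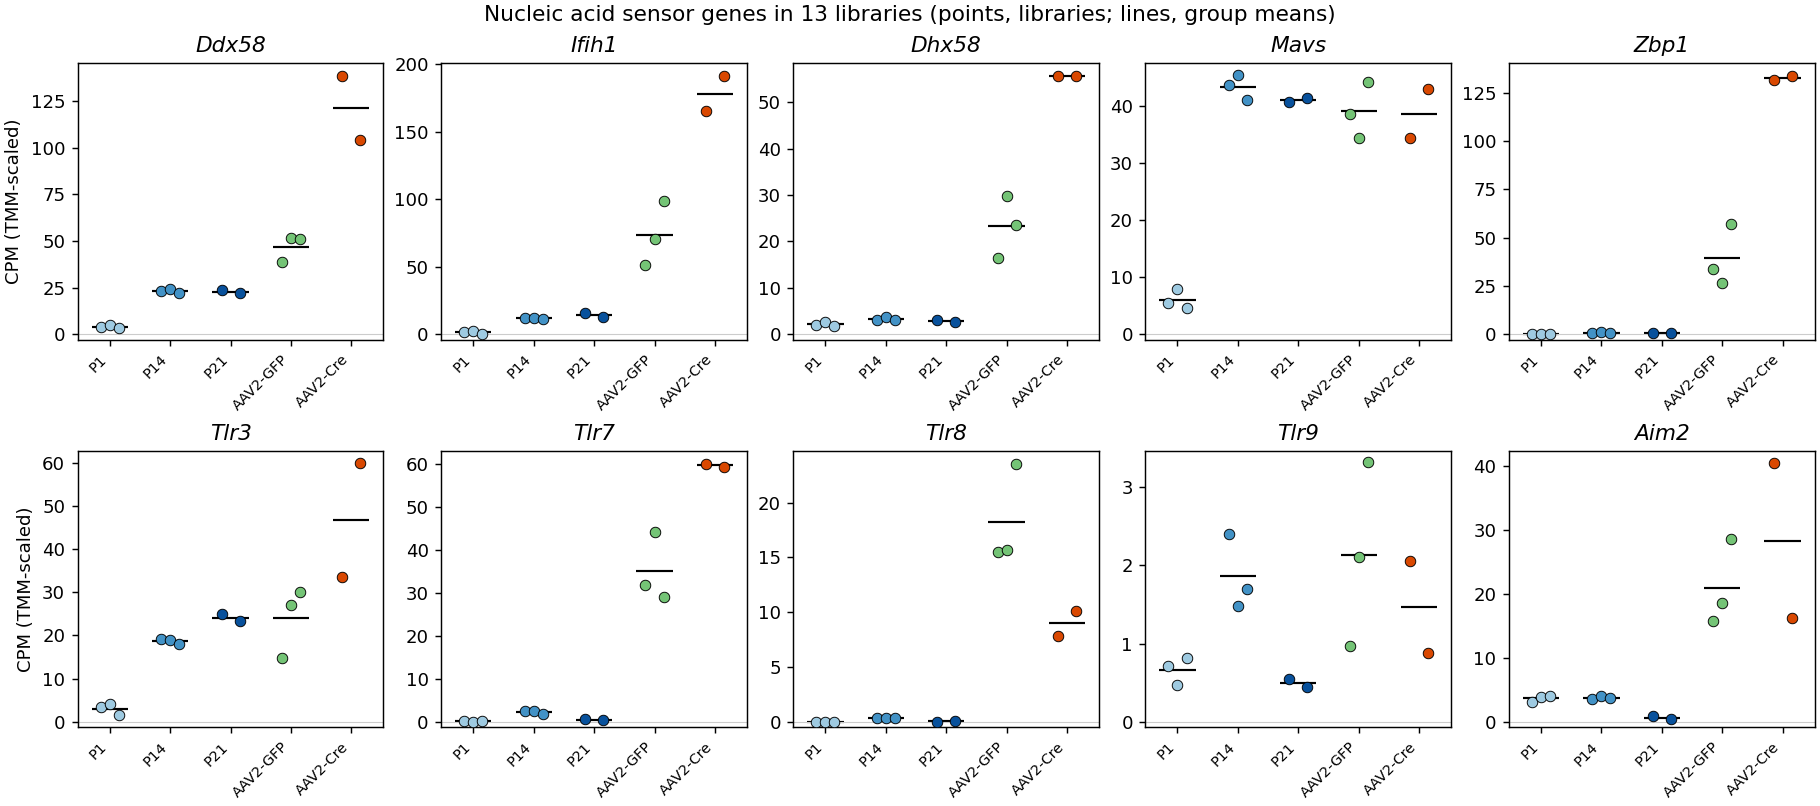
Level of each nucleic acid sensor gene in 13 libraries, as TMM-scaled CPM on a linear axis that includes 0 and differs between panels; points are libraries and lines are group means for P1 (n = 3), P14 (n = 3), P21 (n = 2), AAV2-GFP (n = 3) and AAV2-Cre (n = 2). Ddx58, Ifih1, Dhx58 and Zbp1 are highest with AAV2-Cre, Tlr8 is highest with AAV2-GFP, and Mavs stands between 34.4 and 45.5 CPM in every group but P1.

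Per kilobase of exon, the scale on which genes can be compared, Mavs had the highest mean in every group but AAV2-Cre. At P1 every sensor was low, the highest being Mavs at 1.79 ± 0.507 CPM per kb (SD, n = 3) and Aim2 at 1.05 ± 0.132. At P14 Mavs stood at 13.0 ± 0.680 CPM per kb (n = 3), above Tlr3 at 3.59 ± 0.124 and Ddx58 at 3.27 ± 0.125. The adaptor thus led its helicases at P14 on this scale. With AAV2-GFP, Mavs (11.7 ± 1.46, n = 3), Zbp1 (11.1 ± 4.55), Ifih1 (8.99 ± 2.95) and Tlr7 (8.59 ± 1.97) were of the same order within their SDs. With AAV2-Cre, Zbp1 led at 37.6 ± 0.426 CPM per kb (n = 2), followed by Ifih1 at 21.8 ± 2.26 and Ddx58 at 17.2 ± 3.48, while Mavs stayed at 11.6 ± 1.81. Tlr9 was the lowest of the 10 in both adult groups, at 0.614 ± 0.338 and 0.423 ± 0.238 CPM per kb.

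To ask which sensors differ between the knockout and control groups of injured RGC preparations, AAV2-Cre was compared with AAV2-GFP. Ddx58 and Zbp1 rose, by 2.51-fold and 3.29-fold, and the other cytosolic RNA helicases had fold changes of similar size with adjusted p-values just above the threshold. Two-sided quasi-likelihood tests of edgeR, adjusted by Benjamini-Hochberg over 18395 genes, called 2 of the 10 sensors higher and 8 neither way, against a background in which 1.62% of genes were called, 1.33% higher and 0.294% lower. The unadjusted p was under 0.05 for 6 sensors on the higher side and for 1, Tlr8, on the lower side, against 8.57% and 7.9% of all genes. DESeq2 called 5 sensors higher and 1 lower, against 4.34% and 2.87% of all genes. The median log2 fold change of the 10 was 0.82, beside -0.03 over all genes tested.

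Ddx58, the RIG-I gene, had 139 and 104 CPM with AAV2-Cre and 38.7, 51.4 and 51.0 CPM with AAV2-GFP. Both knockout libraries lay above every control library. The log2 fold change was 1.33 (SE 0.20, edgeR adjusted p = 0.0208). Ifih1, the MDA5 gene, had 165 and 191 CPM with AAV2-Cre and 50.9, 70.5 and 98.7 CPM with AAV2-GFP, again without overlap. Its log2 fold change of 1.24 (95% interval 0.67 to 1.81) had an edgeR adjusted p of 0.0524 and was not called. Dhx58, the LGP2 gene, had 55.7 and 55.7 CPM with AAV2-Cre and 16.5, 29.7 and 23.6 CPM with AAV2-GFP. The pair of knockout libraries was almost identical and stood above all controls, and the log2 fold change of 1.21 (0.64 to 1.79) had an adjusted p of 0.0552. Ifih1 and Dhx58 were called by DESeq2, with adjusted p = 0.000362 and 0.00103, and by limma-voom, with 0.0263 and 0.0304. The 3 helicase genes summed to 360 and 351 CPM with AAV2-Cre and to 106, 152 and 173 CPM with AAV2-GFP.

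Mavs, the adaptor downstream of these helicases (plus strand of chr2:131234063-131248025), had 34.4 and 42.9 CPM with AAV2-Cre and 38.6, 34.5 and 44.2 CPM with AAV2-GFP. The groups overlapped fully. The log2 difference was -0.06 with a 95% interval of -0.51 to 0.39, which leaves out a change of the size fitted for any of the 3 helicase genes.

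Zbp1 (minus strand of chr2:173206612-173218923), whose product can trigger necroptosis through the kinase Ripk3, had 131 and 134 CPM with AAV2-Cre and 33.8, 26.5 and 57.2 CPM with AAV2-GFP. The lower knockout library was above the highest control, and the log2 fold change was 1.72 (SE 0.29, edgeR adjusted p = 0.0279). Calls in this comparison depended on single libraries. Without AAV2-Cre replicate 1, AAV2-Cre replicate 2 or AAV2-GFP replicate 2, none of the 10 sensors was called by edgeR, and without AAV2-GFP replicate 1 only Ddx58 was, whereas the log2 fold change stayed between 1.13 and 1.54 for Ddx58 and between 1.53 and 2.11 for Zbp1 whichever library was left out.

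The endosomal receptors did not move as a block. Tlr3, a receptor for RNA duplexes (minus strand of chr8:45395665-45411080), had 33.6 and 59.8 CPM with AAV2-Cre and 14.8, 27.1 and 29.98 CPM with AAV2-GFP, with a log2 fold change of 0.92 (95% interval 0.15 to 1.68, edgeR adjusted p = 0.22). Tlr7, a receptor for single strands of RNA (minus strand of chrX:167304929-167330558), had 60.1 and 59.3 CPM against 31.8, 44.2 and 29.2 CPM, with 0.72 (0.23 to 1.22, adjusted p = 0.143). For both genes the knockout libraries lay above all controls, and edgeR called neither. DESeq2 called Tlr7 higher (adjusted p = 0.0386), and without the low-count filter edgeR called both Tlr3 and Tlr7 (adjusted p = 0.00444 and 0.0193). Tlr8, the neighbour of Tlr7 on the X chromosome (minus strand of chrX:167242696-167264329), went the other way, at 7.87 and 10.1 CPM with AAV2-Cre and 15.5, 15.7 and 23.6 CPM with AAV2-GFP. Its log2 difference was -1.06 (-1.75 to -0.37, adjusted p = 0.128). Both knockout libraries were below every control, which DESeq2 called (adjusted p = 0.0293) and edgeR did not. In all, 6 of the 10 sensors had both AAV2-Cre libraries above every AAV2-GFP library, against 19.8% of genes tested, and 1 had both below, against 15.7%.

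Since Tlr7 and Tlr8 are counted in the same libraries, their ratio needs no scaling between libraries; it was chosen for a closer look after the values were seen. There were 7.64 and 5.86 Tlr7 counts for each Tlr8 count with AAV2-Cre (848 to 111 and 937 to 160) and 2.06, 2.82 and 1.24 with AAV2-GFP (459 to 223, 734 to 260 and 491 to 397). The mean log2 ratio was 1.79 higher with AAV2-Cre. Because the knockout libraries were above every control for Tlr7 and below every control for Tlr8, the ratios could not overlap, and the difference is a description with no test. At P14, where Tlr7 had 238 counts in all and Tlr8 had 35, the ratio was 8.45, 7.60 and 4.93.

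Tlr9, a receptor for unmethylated CpG DNA (plus strand of chr9:106222598-106226883), had only 43 counts over the AAV2-Cre libraries and 105 over the AAV2-GFP libraries. At 2.06 and 0.886 CPM against 0.971, 2.11 and 3.32 CPM, the groups overlapped, and a log2 difference anywhere from -2.35 to 1.19 was left possible at this depth. Aim2, the DNA sensor (plus strand of chr1:173350879-173466040), had 40.4 and 16.2 CPM with AAV2-Cre and 15.8, 18.5 and 28.6 CPM with AAV2-GFP. The knockout replicates differed from each other by more than the controls did, and the log2 difference was 0.39 (-0.51 to 1.30, edgeR adjusted p = 0.695). The plot of fold changes gives all 4 comparisons side by side.

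**Figure D2:**
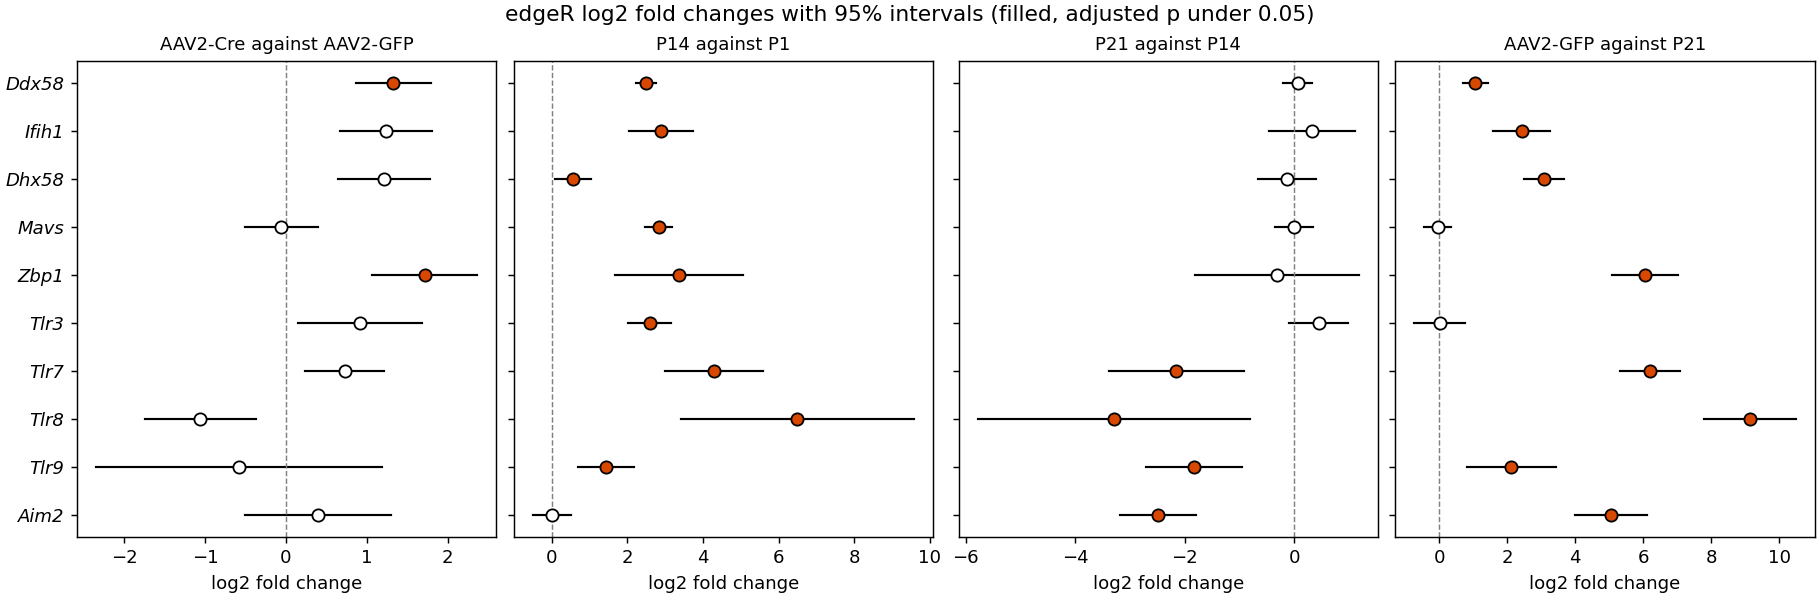
Log2 fold changes of the 10 sensor genes in 4 comparisons, with 95% intervals from edgeR; filled circles have a Benjamini-Hochberg adjusted p under 0.05 and the dashed line marks no change. Axes differ between panels. Ddx58 and Zbp1 are filled in the first panel, 9 genes in the second, Tlr7, Tlr8, Tlr9 and Aim2 on the lower side in the third, and 8 genes in the fourth; fitted values for Tlr8 against P1 or P21 rest on 0 and 2 counts in those groups.

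Cell markers moved with these differences. The summed share of 12 B cell markers was 0.136% and 0.0725% of counts with AAV2-Cre and 0.0300%, 0.0604% and 0.0334% with AAV2-GFP, and that of 15 T and NK cell markers 0.135% and 0.0795% against 0.0383%, 0.0699% and 0.0675%. Neither share overlapped between the groups. By the same edgeR test, 2 of 12 B cell markers were called higher (10 at an unadjusted p under 0.05, median log2 fold change 1.14). For T and NK cells, 0 of 15 markers were called (13 higher at an unadjusted p under 0.05, median 0.95). For microglia and macrophages, 1 of 20 was called higher (4 higher and 2 lower at an unadjusted p under 0.05, median 0.16). For RGCs, 1 of 14 tested markers was called lower (1 higher and 1 lower at an unadjusted p under 0.05, median 0.45). The microglia and macrophage share overlapped between the groups, and no marker of these 3 immune lists was at 0 in any adult library. Rod markers had a lower share with AAV2-Cre (1.40% and 2.97%) than with AAV2-GFP (3.12% to 3.71%), with a median log2 difference of -0.61 and 0 of 14 called, 5 of them lower at an unadjusted p under 0.05. Astrocyte markers had a higher share, at 0.00780% and 0.0145% against 0.00288% to 0.00454%, and 1 of 4 tested was called higher. That share was mostly Gfap (2533 counts over the AAV2-Cre and 990 over the AAV2-GFP libraries) and Aldh1l1 (815 and 530). Pdgfra had 50 and 37 counts, S100b 20 and 29, and Pax2 0 and 0. Of 10 Müller glia markers 1 was called higher, with shares that overlapped. Of 8 plasmacytoid dendritic cell markers 0 were called (4 higher at an unadjusted p under 0.05, median 0.87), at 0.0927% and 0.0984% of counts against 0.0883% to 0.0927%. Tcf4 (10417 counts over the AAV2-Cre and 17354 over the AAV2-GFP libraries) and Pacsin1 (8479 and 12917) had the most counts in this share. Ccr9 (1439 and 703), Spib (2225 and 1266), Cox6a2 (124 and 30) and Klk1 (95 and 13) had more counts with AAV2-Cre. Siglech (5300 and 7601) and Il3ra (471 and 616) did not. Endothelial, neutrophil and pericyte markers had 0 calls of 7, 7 and 6 tested, with 0, 0 and 1 at an unadjusted p under 0.05. The part of all these cells in the sensor values was not tested.

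The wider pathway was read from lists of genes chosen by function, with earlier results of these data known. Genes of the interferon response rose most: 32 of 40 tested were called higher with AAV2-Cre, where 1.33% of all genes were. The median log2 fold change of the 40 was 1.79. Ifit1, which binds uncapped viral RNA, had 3.18 (SE 0.16, edgeR adjusted p = 0.000266). Ifit2 had 1.82 and Oas3, a synthase of the 2-5A messenger that activates RNase L, had 1.95. Without AAV2-Cre replicate 1 or 2, 3 and 1 of the 40 were called. Among 26 tested genes of a list of other sensors, 7 were called higher, with a median of 0.44. This list also holds enzymes that process nucleic acids or nucleotides. The smallest p were those of Samhd1, a dNTP hydrolase that restricts retroviruses (1.35), and the interferon-inducible Ifi211 (1.59) and Ifi203 (1.37). These 7 calls fell to 0 without either AAV2-Cre replicate or AAV2-GFP replicate 2 and to 4 without AAV2-GFP replicate 1.

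Among partners of the sensors, 6 genes were called, all higher, where 1.33% of all genes were. Of 25 partners of cytosolic RNA sensing, 2 were called higher (median 0.14): Zc3hav1, an antiviral zinc finger protein, at 1.22 and Irf7, the transcription factor that drives interferon-alpha genes, at 1.93. Of 27 partners of the endosomal receptors, 2 were called higher (median 0.37): Irf8, a myeloid transcription factor, at 1.15 and the adaptor Myd88 at 0.89. Of 13 cell death and inflammasome partners, 2 were called higher (median 0.67): Mlkl, the executor of necroptosis downstream of Ripk3, at 2.38 (SE 0.30, edgeR adjusted p = 0.0122) and the cytokine Il1b at 1.08. All other members of these 3 lists were not called. Leaving out 1 library gave 0 to 2 calls for the cytosolic list, 0 to 1 for the endosomal list and 0 to 2 for the cell death list, with 0 in each list without either AAV2-Cre replicate and in the cytosolic list also without AAV2-GFP replicate 2. Other alternatives gave 2 to 5, 1 to 8 and 1 to 6 calls. The plot of the lists shows their spread.

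**Figure D3:**
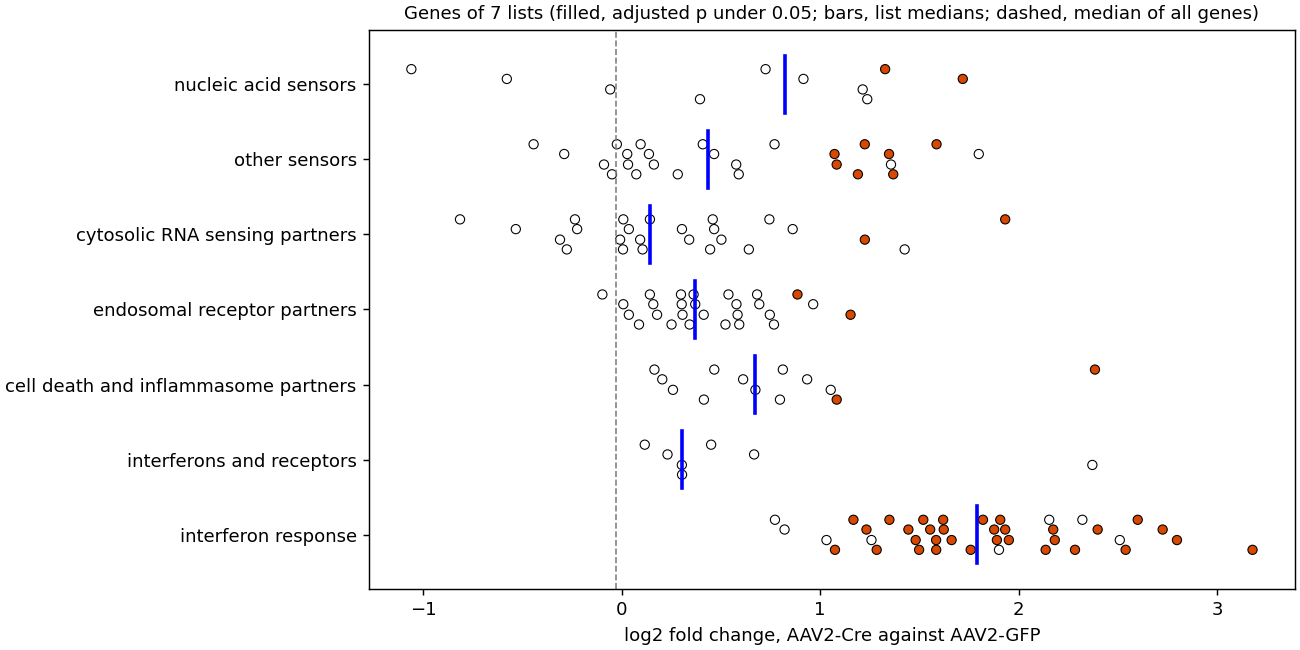
Log2 fold changes of AAV2-Cre against AAV2-GFP for the 10 sensors and 6 related gene lists; each circle is a gene, filled where the edgeR adjusted p was under 0.05, bars are list medians and the dashed line is the median of all genes tested (-0.03). The interferon response list has its median at 1.79 and 32 of 40 circles filled, and the sensors spread from -1.06 to 1.72.

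Transcripts of Ifnb1 and of the Ifna genes examined were not seen in the adult libraries. Ifnb1 and 6 Ifna genes, which encode type I interferons that RNA sensors induce, had 0 counts in all 5 adult libraries and 2 in all over the 8 developmental ones. Ifnk, another type I interferon gene, had 1, 0 and 8 counts with AAV2-GFP and 0 and 0 with AAV2-Cre. At P21 it had 4 and 11 counts. Ifng, the type II interferon made by T and NK cells, had 214 and 129 counts with AAV2-Cre and 64, 102 and 286 with AAV2-GFP. That is 4.44 to 17.0 TMM-scaled CPM over both groups, so the groups overlapped. In development it had 2 counts over 8 libraries. Ifnar2, a chain of the type I receptor, had 98.3 and 94.1 CPM with AAV2-Cre and 64.3, 64.1 and 48.3 CPM with AAV2-GFP, and edgeR called none of the 7 tested interferon and receptor genes in either direction, with 3 at an unadjusted p under 0.05 on the higher side and 0 to 3 called higher under the alternatives tried.

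To follow the sensors through postnatal development, P14 was compared with P1, between preparations of unlike cell content. Of 16 RGC markers, 14 were called lower and 2 higher at P14 (median -3.23), while all 14 rod, 20 microglia and macrophage, 10 Müller glia, 5 astrocyte, 8 endothelial and 7 pericyte markers were called higher. The part of this in the sensor values was not tested. Ddx58, Ifih1, Mavs and Tlr3 rose 5.61-fold to 7.39-fold, Tlr7 rose 19.7-fold from a very low level, Dhx58 and Tlr9 rose less, and Aim2 was not called. By edgeR, 9 of the 10 sensors were called higher, against 67.1% of 20890 genes called, 33.6% higher and 33.6% lower. Zbp1 and Tlr7 passed the filter on low counts only through P14 and P21, and Tlr8 only through P14, so the count is partly set by the filter. The median log2 fold change of the 10 was 2.71, and also with Tlr8 at its lower bound, beside -0.01 over all genes.

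Among the helicases, Ddx58 had 4.06, 4.66 and 3.34 CPM at P1 and 22.9, 24.02 and 22.3 CPM at P14. Each P14 library was far above each P1 library (log2 fold change 2.49, SE 0.12, edgeR adjusted p = 6.77e-08). How often such separation held over all genes was not counted. Ifih1 had 1.70, 2.50 and 0.436 CPM at P1 and 11.96, 11.8 and 11.1 CPM at P14 (2.89, SE 0.38, adjusted p = 8.07e-05). Dhx58 differed little, from 1.97, 2.66 and 1.77 CPM to 3.11, 3.69 and 2.94 CPM. Its log2 fold change of 0.57 (SE 0.21, adjusted p = 0.038) was lost when any of P1 replicate 1 or 3 or P14 replicate 1 or 2 was left out (adjusted p up to 0.127). It also shares 141 exon bases, 4.31% of its exon length, with the antisense gene Dhx58os, which had 9 to 17 counts at P1 and 68 to 88 at P14 beside 61 to 85 and 112 to 114 for Dhx58. The library kit does not mark strand, so reads of this pair in the shared bases cannot be told apart.

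Mavs rose from 5.46, 7.89 and 4.62 CPM at P1 to 43.7, 45.5 and 41.0 CPM at P14, a log2 fold change of 2.83 (SE 0.16, edgeR adjusted p = 1.95e-07). Tlr3 rose in parallel, from 3.37, 4.16 and 1.54 CPM to 19.3, 18.8 and 18.0 CPM (2.60, SE 0.25, adjusted p = 8.97e-06). For neither gene did a P1 library reach any P14 library, a separation whose share over all genes was not counted. Tlr3 shares 381 exon bases with the antisense gene Gm45542, which had 0 counts in every library.

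Zbp1 was near the detection limit, with 7 counts over the 3 P1 libraries and 81 over the P14 libraries, a ratio of 10.9 (95% counting interval 5.07 to 28.0). Tlr7 went from 11 counts at P1 to 238 at P14, or 0.179, 0 and 0.145 CPM against 2.54, 2.51 and 1.78 CPM (log2 fold change 4.30, SE 0.58, edgeR adjusted p = 9.78e-05). Tlr8 had 0 counts at P1 and 35 at P14, so it was at least 11.0-fold higher at P14 with the floor of 3 counts over the P1 group. All 3 genes were thus low at every postnatal age measured. Tlr9 had 0.717, 0.469 and 0.814 CPM at P1 and 2.40, 1.48 and 1.70 CPM at P14 (1.45, SE 0.33, adjusted p = 0.00322). Aim2 differed from the rest, with 3.13, 3.91 and 3.95 CPM at P1 and 3.58, 4.02 and 3.69 CPM at P14. Its log2 difference was 0.00 with a 95% interval of -0.50 to 0.51.

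Between P14 and P21, edgeR called 4 of the 10 sensors, Tlr7, Tlr8, Tlr9 and Aim2, all lower. Ddx58, Ifih1, Dhx58, Mavs, Zbp1 and Tlr3 were not called, which does not by itself set them apart from the others. Over all 20890 genes 33.8% were called, 19.3% lower and 14.6% higher. Tlr8 is 1 of the 4 and passed the filter only through P14, where it is high, so the count of 4 is partly set by the filter. The median log2 fold change of the 10 was -0.23 beside -0.00 over all genes. No sensor was called higher by edgeR or had an unadjusted p under 0.05 on that side, DESeq2 called none higher, and limma-voom called Tlr3. This comparison uses the same P14 libraries as the one before it.

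Tlr7 went from 2.54, 2.51 and 1.78 CPM to 0.577 and 0.386 CPM, a log2 difference of -2.16 (SE 0.55, edgeR adjusted p = 0.014). Its call was lost without P14 replicate 1, P14 replicate 2 or P21 replicate 2, at adjusted p = 0.0536, 0.053 and 0.067. Tlr8 went from 35 counts to 2, a ratio of P14 to P21 of 11.6 (95% counting interval 2.98 to 99.6), and its edgeR adjusted p of 0.048 rose above 0.05 whichever P14 or P21 library was left out. Tlr9 went from 2.40, 1.48 and 1.70 CPM to 0.549 and 0.445 CPM (-1.83, SE 0.39, adjusted p = 0.00623). Aim2 had the firmest decrease, from 3.58, 4.02 and 3.69 CPM to 0.879 and 0.386 CPM (-2.48, SE 0.31, adjusted p = 0.000302). For these 4 genes, named because they were called lower, no P21 library reached any P14 library. How often this held over all genes was not counted.

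The other 6 sensors were not called over this interval. Ddx58 had 23.7 and 22.0 CPM at P21, a log2 difference of 0.06 (95% interval -0.20 to 0.32). Mavs had 40.8 and 41.4 CPM (0.00, -0.36 to 0.35). Ifih1 had 15.4 and 12.4 CPM (0.33, -0.45 to 1.11), Dhx58 3.07 and 2.52 CPM (-0.14, -0.67 to 0.39) and Tlr3 25.0 and 23.2 CPM (0.44, -0.10 to 0.98). The intervals of Ddx58, Mavs, Dhx58 and Tlr3 leave out a change by a factor of 2 in either direction, whereas that of Ifih1 does not on the higher side and that of Zbp1 (-1.81 to 1.18) is wide.

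Markers of several cell types went up at P14 and down at P21, as Tlr7, Tlr8 and Tlr9 did. Of 20 microglia and macrophage markers, 20 were called higher at P14 against P1 and 17 lower at P21 against P14 (median log2 difference -1.77). Of 7 pericyte markers, 7 were called higher and then 7 lower (median -3.19), and their share was 0.0105% to 0.0341% of counts at P1, 0.402% to 0.457% at P14 and 0.0574% and 0.0834% at P21. Rod markers were called higher in 14 of 14 cases and then lower in 10 (1 higher), endothelial markers in 8 of 8 and then 5 (while their summed share went from 0.142% ± 0.00373 to 0.181% ± 0.000201), and astrocyte markers in 5 of 5 and then 3 (1 higher). The sum of Tlr7, Tlr8 and Tlr9 was 0.469 to 0.959 CPM at P1, 3.84 to 5.24 CPM at P14 and 0.891 to 1.13 CPM at P21. Aim2 did not share this course, since it stood at 3.67 CPM at P1 and 3.76 CPM at P14 and was lower only at P21. Müller glia markers (10 genes) went from 0.437% ± 0.194 of counts (SD, n = 3) at P1 to 2.17% ± 0.0690 (n = 3) at P14 and 3.93% ± 0.151 (n = 2) at P21. RGC marker shares were 0.142% to 0.163% at P14 and 0.0509% and 0.0954% at P21. The part of these shares in the sensor values was not tested. The plot of sums and marker shares sets them side by side.

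**Figure D4:**
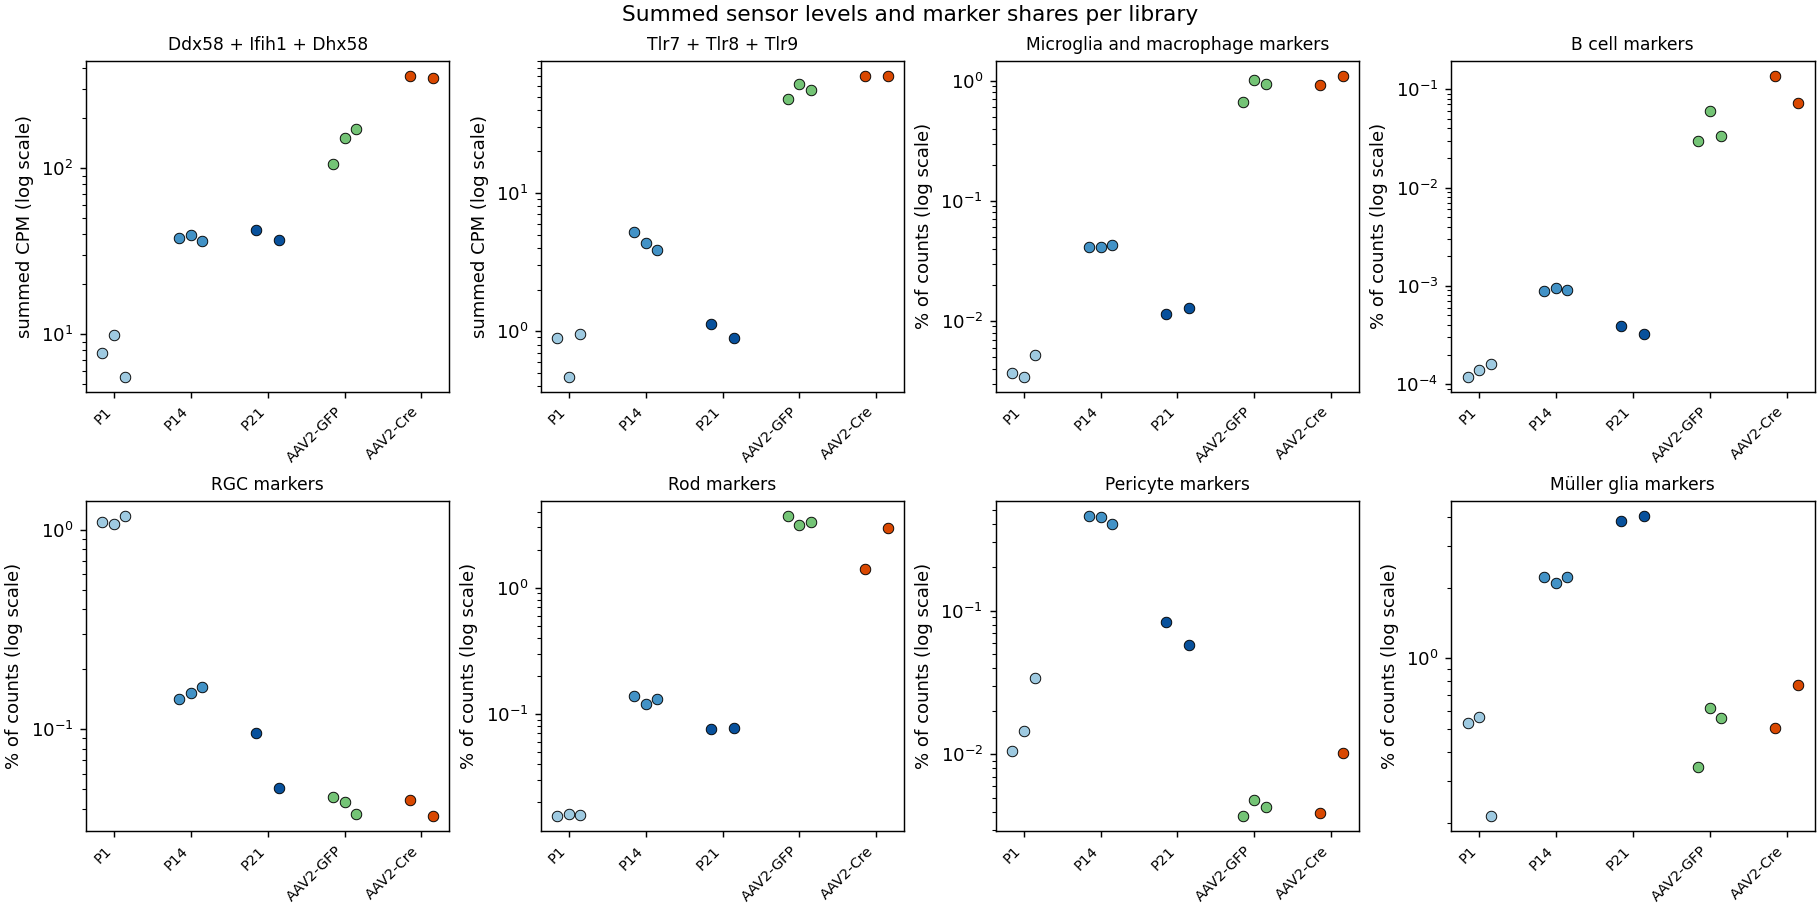
Summed CPM of the helicase genes Ddx58, Ifih1 and Dhx58 and of Tlr7, Tlr8 and Tlr9, beside the percent of counts taken by microglia and macrophage, B cell, RGC, rod, pericyte and Müller glia markers, per library on log axes. The Tlr7, Tlr8 and Tlr9 sum and the microglia and macrophage share both go up from P1 to P14, down at P21 and are highest in the adult libraries, while the helicase sum is similar at P14 and P21, the rod share follows the first order too, and the pericyte share is low in the adult libraries.

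The related lists changed in both directions over development. At P14 against P1, 33 of 40 interferon response genes were called higher and 3 lower, with Oasl2 at 3.04, the membrane restriction factor Ifitm3 at 3.23 and Lgals3bp at 2.03. Of 26 endosomal receptor partners, 23 were called higher, among them the lysosomal protease Lgmn (1.39), the cathepsin Ctsb (0.99) and Myd88 (1.74), and all 12 tested cell death and inflammasome partners were called higher. In that list Ninj1 (2.61), Cflar (2.23) and Ripk1 (1.41) had the smallest p. Il1b, named for its size after the values were seen, had the largest fitted log2 fold change, 5.66. Both lists exceeded the background of 33.6%. Of 25 other sensors, 12 were higher and 6 lower, with the RNA helicase Dhx9 at -0.85, the RNA editing enzyme Adar at -0.63 and the interferon-inducible Mndal at 4.14. Of 24 cytosolic RNA sensing partners, 14 were higher and 6 lower, with Zc3hav1 at 3.60 and the mitochondrial Tomm70a at -1.08 and Mfn1 at -0.98. Of 6 interferon and receptor genes, 3 were higher and 2 lower, with the receptor chains Ifnar2 at 1.39, Ifngr1 at 1.18 and Ifngr2 at -1.34.

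At P21 against P14, 12 of 26 endosomal receptor partners were called lower and 3 higher, against 19.3% and 14.6% over all genes. Unc93b1, the chaperone that carries nucleic acid receptors to endosomes, fell by 1.497 on the log2 scale and the cathepsin Ctss fell by 2.06, while Irak2 rose by 0.69. The 12 lower calls became 6 to 8 when any P14 or P21 library was left out. Of 25 other sensors, 10 were lower and 2 higher, with Mndal at -2.73, the DNA-sensing adaptor Sting1 at -2.21 and Ifi203 at -2.78. Without P21 replicate 2, 6 were lower and 0 higher, and 0 to 1 were higher without P21 replicate 1, P14 replicate 1 or P14 replicate 2. Ripk3 (-2.67), Mlkl (-2.78) and Gsdmd (-0.77) were the 3 of 12 cell death partners called lower, and Mlkl and Gsdmd had adjusted p = 0.0574 and 0.0942 without P21 replicate 2. Cytosolic RNA sensing partners were called lower in 5 and higher in 4 of 24 cases, with Ppp1cc at 0.44, Traf6 at 0.59 and Tomm70a at -0.35. Of 40 interferon response genes, 11 were higher and 5 lower, with Ifit2 at 1.14, Cmpk2 at 1.07 and Sp100 at -2.23. Without P21 replicate 2 these calls became 7 higher and 2 lower. Among interferon receptors Ifngr2 was lower (-0.43).

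The AAV2-GFP libraries were set against P21 to place the level in injured control preparations beside the oldest uninjured age. This comparison shares its AAV2-GFP libraries with the knockout comparison and its P21 libraries with the developmental one, and every difference between the datasets enters it. By edgeR, 8 of the 10 sensors were called higher, against 66.5% of 23844 genes called, 32.6% higher and 33.9% lower. Mavs and Tlr3 were the exceptions. The median log2 fold change was 2.75 beside 0.01 over all genes. Tlr8 passed the filter only through the adult groups, and with at least 10 counts required in every library, 5 sensors were called higher.

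The differences spanned a wide range. Ddx58 was 2.10-fold higher (log2 1.07, SE 0.17, edgeR adjusted p = 9.54e-05), Ifih1 5.38-fold and Dhx58 8.45-fold. Zbp1 went from 0.631 and 0.564 CPM at P21 to 26.5 to 57.2 CPM, a log2 fold change of 6.05 (SE 0.45, adjusted p = 6.38e-08). Tlr7 had 6.19 (SE 0.41), Aim2 5.06 (SE 0.49) and Tlr9 2.12 (SE 0.60, adjusted p = 0.00748, and 0.0594 without P21 replicate 2). Tlr8 rose from 2 counts at P21 to 880, a ratio of 644 (95% counting interval 178 to 5329). Zbp1, Tlr7, Tlr8 and Aim2, all under 1 CPM at P21, had the largest differences. Tlr9 was also under 1 CPM at P21, but its difference was smaller than those of Ifih1 and Dhx58. Mavs had a log2 difference of -0.04 (95% interval -0.45 to 0.37) and Tlr3 of 0.02 (-0.73 to 0.76).

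Markers of most cell types differed as well. With AAV2-GFP, 20 of 20 microglia and macrophage, 12 of 12 B cell, 15 of 15 T and NK cell and 14 of 14 rod markers were called higher, the rod share being 3.38% ± 0.302 of counts (SD, n = 3) against 0.0762% ± 0.00140 (n = 2) at P21. Called lower were 11 of 16 RGC, 9 of 10 Müller glia, 5 of 5 astrocyte, 6 of 7 pericyte and 6 of 8 endothelial markers. Their part in the sensor values was not tested. In the related lists, 27 of 40 interferon response genes were called higher and 3 lower, with Sp100 at 7.17, Trim30a at 5.84 and Oas3 at 6.79, and 16 of 26 other sensors higher and 6 lower, with the interferon-inducible Ifi207, Ifi211 and Ifi204 at 9.24, 8.68 and 8.16. Of 27 endosomal receptor partners, 21 were higher and 4 lower, with Unc93b1 at 5.45, Irf8 at 5.76 and Irak1 at -3.70. Of 13 cell death and inflammasome partners, 9 were higher and 3 lower, with Il1b at 8.37, Gsdmd at 4.88 and Casp8 at 4.64. Cytosolic RNA sensing partners were split, with 10 higher and 10 lower of 25, Zc3hav1 at 3.00, Pcbp2 at -1.90 and Ppp1cc at -2.87. Of 8 interferon and receptor genes, 5 were higher, with Ifngr1 at 3.83, Il10rb at 2.49 and Ifngr2 at 1.90.

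Over all groups, the order of mean levels was AAV2-Cre, AAV2-GFP, P14, P21, P1 for Ddx58, Dhx58, Zbp1 and Tlr7, with P14 and P21 overlapping in all but Tlr7, and P21 and P1 in Dhx58. Ifih1 had P21 above P14, with no overlap between any neighbours. Mavs was ordered P14, P21, AAV2-GFP, AAV2-Cre, P1, and only P1 stood apart from its neighbour. For Tlr8 the order was AAV2-GFP, AAV2-Cre, P14, P21, P1, with P21 and P1 overlapping. Tlr3 was ordered AAV2-Cre, P21, AAV2-GFP, P14, P1, and its AAV2-GFP libraries overlapped both neighbours. Tlr9 and Aim2 were lowest at P21, where Tlr9 overlapped P1, and neither gene separated the adult groups from each other.

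The genes most like 9 of the sensors over the 13 libraries were found by Pearson correlation of log2 CPM among 14011 genes, a description with points that share 2 datasets of unlike depth. Ddx58 was closest to Parp9 (0.995) and Nfkb2 (0.993), and Ifih1 to Trim34a (0.994) and Dpp4 (0.993). Dhx58 was closest to Arf4 (0.995) and Xbp1 (0.995), Tlr3 to Xaf1 (0.991) and Rnf135 (0.985), and Mavs to Nfib (0.990) and Nckap5 (0.986). Tlr7 was closest to Arhgap9 (0.993) and Vav1 (0.992), Tlr8 to Ppcdc (0.996) and Cd84 (0.993), and Aim2 to Tkt (0.989) and Prcp (0.982). Tlr9, the sensor with the lowest adult level, had the weakest likeness, to P2rx1 (0.921) and Pald1 (0.876).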

How the data were processed

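RNA from Thy1.2-sorted retinal cells was sequenced in 13 libraries of 5 groups. The authors checked reads with FastQC 0.11.9, trimmed them with Trimmomatic 0.39, aligned them to GRCm38 (mm10) with HISAT2 2.2.1, and counted reads by gene (featureCounts, Subread 2.0.3). The counts they deposited are raw whole numbers, not normalized. The annotation and strand setting of the counting are not given in the sources used here, and the library kit does not mark strand.

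Sample groups were taken from the sample labels and columns from their names. Genes were matched by Ensembl identifier to symbols (52403 of 52550). Counts were filtered with filterByExpr (minimum count 10), scaled by TMM and tested two-sided with glmQLFit and glmQLFTest of edgeR 4.0.16 (R 4.3.3), with Benjamini-Hochberg adjustment over all genes tested and a call at adjusted p under 0.05. AAV2-Cre against AAV2-GFP used 5 libraries, the developmental comparisons 8 in 1 fit, and AAV2-GFP against P21 all 13. Levels are CPM scaled by TMM over 13 libraries, and per kb of merged GENCODE M21 exons between genes. Intervals are at 95%; counting intervals are exact. DESeq2 1.42.0, limma-voom (limma 3.58.1), other scalings, filters, a fold limit, a replicate block and leaving out each library were tried as alternatives. In counts simulated on the AAV2-Cre against AAV2-GFP libraries (17706 genes), 11.8% of genes changed by 1 on the log2 scale and 59.1% of those changed by 2 were called.

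Replicates of a group differed by more than sampling noise. The members and lists were chosen with earlier results of these data known. Text names all 10 sensors, in each list and comparison the 3 called genes with the smallest p, Kdm6a, and markers where needed. It also names the 2 genes most like each sensor (mean log2 CPM no lower than 1). Interferon genes, antisense partners, Il1b at P14 against P1 and the Tlr7 to Tlr8 ratio were chosen after values were seen. Protein comparisons were not run, for want of a protein table, and the genes most like Zbp1 and a further promoter motif are not reported here.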

Additional observations from a re-analysis of the deposited data

How the results depend on the processing

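For AAV2-Cre against AAV2-GFP, 2 sensors were called higher and 298 genes in all. DESeq2 called 5 sensors higher, 1 lower and 1326 genes, limma-voom 4 and 456, no filter 6 higher, 1 lower and 1512, a filter of at least 10 counts in every library 4 and 530, and 1 fit of all 13 libraries 4 and 2504, with 67 genes of the related lists against 44. Leaving out 1 library gave 0 to 3 sensors, 5 to 283 genes and 1 to 43 list genes, the lowest without an AAV2-Cre library, where the lone library is assumed to vary like the others. For P14 against P1, a fold limit of 1 on the log2 scale took 14019 genes to 7304. For P21 against P14, limma-voom called 1 sensor higher, the 10-count filter left 2 of 4 lower because Tlr7 and Tlr8 were not tested, the fold limit took 7071 genes to 2486 and 55 list genes to 25, 1 fit of 13 libraries gave 2624 genes, and leaving out 1 library gave 2 to 3 sensors and 35 to 43 list genes. For AAV2-GFP against P21, the 10-count filter gave 5 sensors and 10523 genes against 15848.

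Signs turned only for sensors that were not called. Over the fits that left out 1 library, the log2 difference for AAV2-Cre against AAV2-GFP ran from -0.21 to 0.12 for Mavs (0.057 without AAV2-GFP replicate 3) and from -0.39 to 0.92 for Aim2. For P14 against P1, Aim2 ran from -0.10 to 0.055 (-0.044 without P14 replicate 2) and was -0.0020 with DESeq2 and -0.0021 with its size factors. For P21 against P14, Mavs ran from -0.047 to 0.030 (0.0048 and 0.017 without replicate 1 of P14 or P21) and Zbp1 from -0.52 to 0.017. For AAV2-GFP against P21, Mavs ran from -0.13 to 0.053 and was 0.066 with DESeq2, 0.065 with its size factors and 0.014 without scaling, and Tlr3 ran from -0.17 to 0.26 (-0.064 without AAV2-GFP replicate 2, -0.041 without P21 replicate 2) and was -0.015 with limma-voom and -0.0062 without a filter. Except where fewer genes or libraries were tested, the cause was not tested.

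Replicate numbers are shared between groups, and the labels do not say whether same-numbered libraries were handled together. Deviations of same-numbered libraries correlated at -0.027 to 0.0077. This shows no shared shift, but it cannot tell whether the libraries were paired. With a replicate block, 3 sensors were called higher for AAV2-Cre against AAV2-GFP (Ifih1 added, adjusted p = 0.0134) among 255 genes, and 3 lower for P21 against P14 (Tlr8 lost, adjusted p = 0.153), where Ddx58 became -0.0080. Mavs became 0.032 for AAV2-Cre against AAV2-GFP. Depth limits Tlr8, Tlr7 and Zbp1 in development, and Tlr9 throughout, to low counts.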
